A study of Mus musculus with 16 samples.

Results

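Imprinted genes are expressed mainly or solely from the copy inherited from one parent. The 38 members described here are mouse genes chosen by name because they are known to be imprinted, and all 38 were among the 24062 gene rows of the count table. Of these, 24 are known to be expressed from the paternal copy and 13 from the maternal copy in tissues where they are imprinted, and Gnas gives rise to transcripts of either kind. RNA sequencing was done on spermatozoa of 16 male mice, 8 on a high-fat diet (HFD) and 8 on a control diet (CD). Males were put on their diet at 3 weeks of age and kept on it for 9 weeks, after which motile sperm were collected. The strain is not given in the labels, and no genotype or further treatment is named for either diet.

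The marks that set parental expression are laid down as DNA methylation in the germ line, so sperm carry methylated copies of some imprinting control regions and unmethylated copies of others. Many members act on growth: Igf2 is a fetal growth factor, Igf2r clears it, and Cdkn1c and Grb10 hold growth back. Others are long noncoding RNAs, such as H19, Meg3, Kcnq1ot1 and Airn, that lie at control regions and, for Kcnq1ot1 and Airn, silence neighbours in cis. Read counts per gene do not show which parental copy a transcript came from, so allelic expression was not measured here.

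The members lie on 9 chromosomes of the GRCm38 genome, with 17 on chromosome 7 and 6 on chromosome 12. Of the 38, 6 are annotated as noncoding, and 18 share exon bases with another annotated gene. A set of 4 members lies within the span of a host gene: Mcts2 in H13, Zrsr1 in Commd1, Nnat in Blcap and Nap1l5 in Herc3. Their upstream sequences are shown because each has a start of its own inside the host, where imprinting is known to act, and because the counts of Mcts2 and Zrsr1 are set against those of their hosts further on. Each line gives the 250 bases before the RefSeq start on GRCm38.p6, 5′ to 3′, with CpG dinucleotides, the sites of DNA methylation, in capitals. The windows are chr2:152686898-152687147 (plus strand) for Mcts2, chr11:22971755-22972004 (plus strand) for Zrsr1, chr2:157559828-157560077 (plus strand) for Nnat and chr6:58907127-58907376 (minus strand) for Nap1l5.
Mcts2: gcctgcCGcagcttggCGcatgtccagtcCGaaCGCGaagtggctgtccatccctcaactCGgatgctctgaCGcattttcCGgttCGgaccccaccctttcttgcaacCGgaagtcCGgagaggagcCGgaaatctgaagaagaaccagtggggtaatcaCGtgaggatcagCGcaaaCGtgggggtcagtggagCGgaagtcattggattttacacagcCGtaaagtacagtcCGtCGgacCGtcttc
Zrsr1: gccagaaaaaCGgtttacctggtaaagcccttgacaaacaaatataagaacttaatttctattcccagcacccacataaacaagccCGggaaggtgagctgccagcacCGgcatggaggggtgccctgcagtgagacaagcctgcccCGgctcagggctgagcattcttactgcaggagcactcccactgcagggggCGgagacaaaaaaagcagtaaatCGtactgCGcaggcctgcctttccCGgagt
Nnat: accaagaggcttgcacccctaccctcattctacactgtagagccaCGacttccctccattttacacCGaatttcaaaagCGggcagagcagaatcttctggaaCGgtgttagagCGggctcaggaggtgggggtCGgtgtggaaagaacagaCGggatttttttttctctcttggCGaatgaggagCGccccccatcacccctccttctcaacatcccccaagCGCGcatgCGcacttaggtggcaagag
Nap1l5: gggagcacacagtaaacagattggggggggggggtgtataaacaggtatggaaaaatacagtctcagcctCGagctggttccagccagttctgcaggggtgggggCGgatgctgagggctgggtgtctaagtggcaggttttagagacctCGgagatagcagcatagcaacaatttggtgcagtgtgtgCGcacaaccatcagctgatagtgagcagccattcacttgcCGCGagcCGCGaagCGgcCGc
The Mcts2 window ends inside the GENCODE gene, whose start lies further upstream than that of RefSeq. The Mcts2 window held 20 CpG dinucleotides, Nnat 12, Nap1l5 10 and Zrsr1 8. Over the 47 windows that RefSeq gives for 31 of the members the median was 8, against 6 over 32851 windows of all genes.

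Gene counts per library ran from 1882555 to 5153818 in HFD and from 3172721 to 7783981 in CD. Genes of late spermatids, the stage just before sperm, were found in every library and together had 3282 to 55817 CPM in HFD and 2571 to 13582 CPM in CD, where CPM is the usual counts-per-million scale, here relative to a library's gene counts. All 27 of them had a count. Genes of the epididymal epithelium, which lines the duct in which sperm mature, summed to more than the late spermatid genes in 14 libraries, at 43131 to 91885 CPM. In HFD 4 and HFD 8 this was turned round, with 16233 and 12348 CPM of epididymal against 23876 and 55817 CPM of late spermatid genes, and meiotic genes summed to 4455 and 3485 CPM, against 239 to 1214 CPM elsewhere. Fold changes and sums of the members that rest on these libraries are given with and without them. In bulk RNA, fewer cells of a type and less RNA per cell cannot be told apart.

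Imprinted transcripts were a small part of the RNA, and Gnas was their largest single component. All members together took from 0.0944% to 0.256% of gene counts, and Gnas alone supplied 43.6% to 73.0% of the counts of the members. The summed level was 1912 ± 594 CPM in HFD and 2156 ± 328 CPM in CD (SD, n = 8 each). HFD 4 held 1012 CPM and HFD 8 held 944 CPM, and the other 14 libraries held 1749 to 2565 CPM. Without these libraries the HFD mean was 2223 ± 167 CPM (SD, n = 6), above that of CD. The paternally expressed members together had 545 ± 150 CPM in HFD and 584 ± 68.9 CPM in CD, and the maternally expressed members 189 ± 34.2 CPM in HFD and 192 ± 23.5 CPM in CD (SD, n = 8 each). Without HFD 4 and HFD 8 the HFD mean of the paternally expressed members was 622 ± 47.9 CPM, above that of CD, and that of the maternally expressed members 174 ± 16.6 CPM (SD, n = 6). In HFD 4 and HFD 8 the paternally expressed members stood at 351 and 274 CPM, under the 484 to 691 CPM of the other 14 libraries. The maternally expressed members had 213 CPM in HFD 4, inside the 154 to 221 CPM of the other 14 libraries, and 259 CPM in HFD 8, above it. Single genes weigh on both sums. On the edgeR scale used below for single genes, Slc38a4, paternally expressed, stood at 13.1 and 31.7 CPM in HFD 4 and HFD 8. In the other 14 libraries it had 119 to 318 CPM. Ube3a, maternally expressed, stood at 110 and 161 CPM there, against 53.0 to 135 CPM in the other 14. Sums without these genes were not made.

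From here on, CPM of single genes are scaled by edgeR's trimmed mean of M-values, and levels of different genes are compared as CPM per kb of merged exons, averaged over 16 libraries. Gnas, the G protein subunit that couples hormone receptors to cyclic AMP, was the highest member at 114 CPM per kb, above 97.4% of the genes tested. Slc38a4, an amino acid transporter, followed at 41.7 CPM per kb and Mcts2, a retrogene that encodes a translation factor, at 29.8 CPM per kb. Impact, a regulator of the amino acid stress response, had 12.4 CPM per kb, Mest, a hydrolase family gene, 10.2, the splicing factor retrogene Zrsr1 8.199, the potassium channel Kcnq1 7.36, and Ube3a, the ubiquitin ligase of Angelman syndrome, 4.52. Kcnq1ot1 had many counts, with a mean of 152 CPM in HFD and 160 CPM in CD, but its annotated transcript is 93.1 kb long, and its level was 1.67 CPM per kb. Igf2r stood at 2.87, Plagl1 at 1.75, Grb10 at 1.71, Peg3 at 1.69, Igf2 at 1.65 and H19 at 0.757 CPM per kb. Meg3, at 0.297 CPM per kb, was above 0.184% of the genes tested. Per-length levels rest on the GENCODE exon model, which may differ from the one used for counting.

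**Figure D1:**
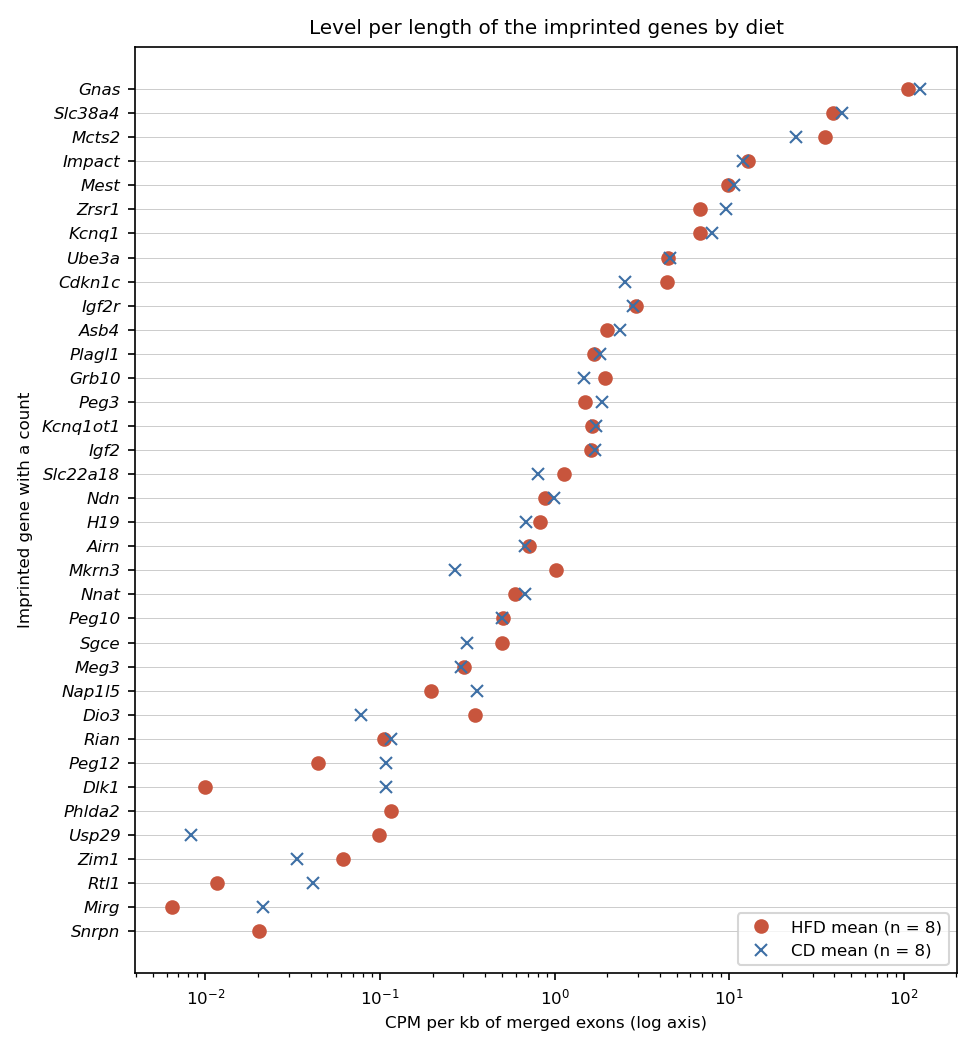
Mean level of each imprinted gene with a count, in CPM per kb of merged exons on a log axis, for HFD (circles) and CD (crosses), n = 8 libraries each; a diet at 0 has no marker. Gnas is highest at 114 CPM per kb over 16 libraries, and the members spread over several powers of 10 below it.

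Some members had no counts or almost none. In the Prader-Willi region, Magel2 and Snurf had 0 counts in every library and Snrpn had 1 count in all, in HFD 8. Snurf shares 100% of its annotated exon bases with other genes, and Snrpn 34.1%, and both are known to be read from one transcript. Reads set aside as ambiguous between genes made up 0.0474% to 0.0907% of a library's reads, and whether they include reads of this locus was not tested. Magel2 shares no exon bases, and 3 counts, the limit that a count of 0 allows, correspond to 0.397 to 1.79 CPM across libraries. Phlda2, a placental growth restrictor, had 4 counts, all in HFD 6. These limits cover counting error only. Counts of members that did not pass the expression filter are given here and further on as deposited, not scaled for depth, and HFD libraries were shallower than CD libraries at the median.

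A similar number of members was detected in both diets. At least 1 count was found for 26 to 33 members in HFD libraries and for 26 to 30 in CD libraries. When every library was thinned to 1882555 gene counts, the expected number was 26.9 ± 1.27 in HFD and 26.4 ± 1.41 in CD (SD, n = 8 each). Of the 38 members, 18 had a count in every library.

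**Figure D2:**
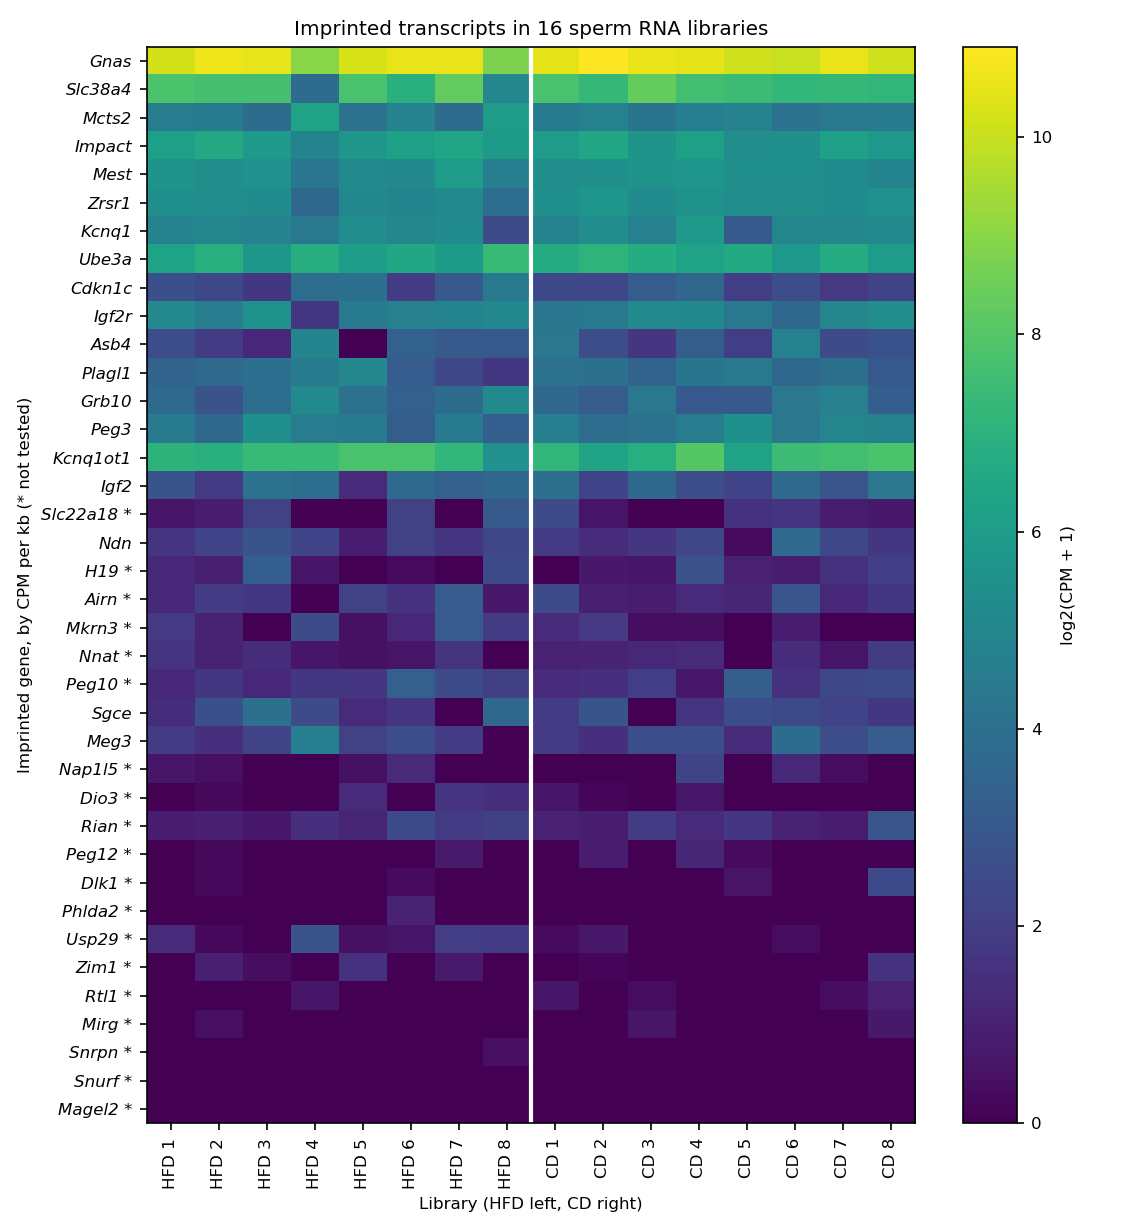
Level of all 38 imprinted genes as log2(CPM + 1), with 1 column per library (HFD left, CD right) and 1 row per gene ordered by CPM per kb; an asterisk marks genes that did not pass the expression filter. In HFD 4 and HFD 8 Gnas, Slc38a4 and Zrsr1 are darker and Mcts2 is brighter than in the other 14 libraries.

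The diets were compared gene by gene with edgeR's quasi-likelihood test over the 13149 genes that passed the expression filter, which 19 of the 38 members did. Of these 19 members 0 passed an edgeR adjusted p of 0.05, and the background was 0% of all genes tested. At an unadjusted p under 0.05 edgeR gave 0 of 19 members, against 11.3% of all genes. DESeq2 called 0 of 19, against 0.00761% of all genes, and gave 1 of 19 at an unadjusted p under 0.05, against 13.8%. With limma-voom 0 of 19 members had an unadjusted p under 0.05, against 3.71% of all genes. The ranges over HFD and CD libraries overlapped for all 19 members, and failed to overlap for 0.00761% of all genes. Log2 fold changes of HFD over CD were positive for 6 members and negative for 13, with a median of -0.08, where the median over all genes was -0.0042. Without HFD 4 and HFD 8, 20 members could be tested, 10 were positive and 10 negative, and the median was -0.02. Over the 13149 genes and 19 members of the fit to all libraries, leaving out both libraries gave 9 positive and 10 negative members and a median of -0.07. In the fit with 20 members, 0 had an unadjusted p under 0.05, against 2.17% of all genes. Of the 11 tested paternally expressed members 3 were positive and 8 negative, with a median of -0.12, or 0.01 without HFD 4 and HFD 8. Of the 7 maternally expressed members 3 were positive and 4 negative, with a median of -0.01, or -0.15 without HFD 4 and HFD 8. For 9 members the 95% interval of the difference lay within 2-fold in either direction, and for the other 10 it reached beyond 2-fold in at least one direction.

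**Figure D3:**
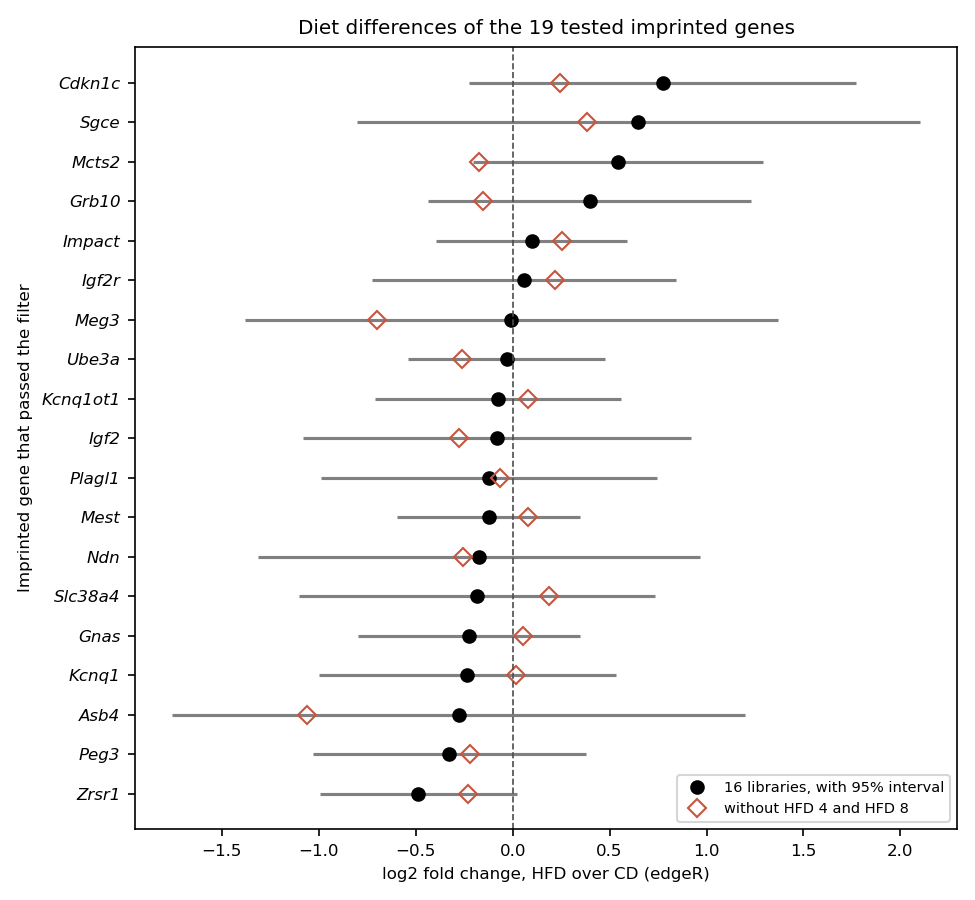
Log2 fold change of HFD over CD for the 19 tested imprinted genes, with 95% intervals from edgeR (black, 16 libraries) and values without HFD 4 and HFD 8 (open diamonds). All 19 intervals include 0, and the values of Mcts2, Grb10, Gnas, Slc38a4, Mest, Kcnq1 and Kcnq1ot1 change sign without the 2 libraries.

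Zrsr1 had the smallest p of the members. This retrogene (chromosome 11, 22972005 to 22976496, protein-coding) had from 11.9 to 42.8 CPM in HFD, with a median of 34.4, and from 37.96 to 51.5 CPM in CD, with a median of 42.3. HFD 4 and HFD 8 were lowest, at 11.9 and 14.3 CPM, and HFD 1 and HFD 2 lay inside the CD range. Means were 30.6 ± 11.5 CPM in HFD and 43.1 ± 4.43 CPM in CD (SD, n = 8 each). The log2 fold change was -0.49 ± 0.24 (SE), with a 95% interval of -0.99 to 0.02 and an edgeR adjusted p of 0.460. Its value was -0.23 when HFD 4 and HFD 8 were left out.

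Mcts2 was high where Zrsr1 was low. The gene (chromosome 2, 152687035 to 152687946, protein-coding) reached 77.96 and 64.9 CPM in HFD 4 and HFD 8. The remaining HFD libraries had 13.3 to 27.4 CPM and the CD libraries 16.1 to 27.6 CPM. Means were 32.3 ± 24.9 CPM in HFD and 22.02 ± 4.24 CPM in CD (SD, n = 8 each). The log2 fold change was 0.54 ± 0.36 (SE), with a 95% interval of -0.21 to 1.29 and an edgeR adjusted p of 0.599. It was 0.25 without HFD 4, 0.31 without HFD 8 and -0.17 without both. Mcts2 is a copy of Mcts1 on another chromosome, and reads could be split between such copies. Mcts1 itself stood at 15.5 and 27.9 CPM in HFD 4 and HFD 8, inside the 9.58 to 45.2 CPM of the other 14 libraries. Zrsr2, of the family of Zrsr1, stood at 14.3 CPM in HFD 4, inside the 13.7 to 44.9 CPM of the other 14 libraries, and at 9.76 CPM in HFD 8, below them. Nap1l1, of the family of Nap1l5, stood at 111 and 180 CPM, inside 87.5 to 191 CPM.

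In HFD 4 and HFD 8 the retrogenes Mcts2 and Zrsr1 also stood apart from their hosts. H13, a signal peptide peptidase, was at 35.1 and 57.9 CPM there, against 37.04 to 105 CPM in the other 14 libraries. The ratio of Mcts2 to H13 counts was 2.22 in HFD 4, 1.12 in HFD 8 and 0.157 to 0.745 elsewhere. Over diets this ratio had a median of 0.293 in HFD and 0.263 in CD. Mcts2 shares no exon bases with another gene but lies within H13 on the same strand. Reads of unspliced H13 RNA there would count as Mcts2, and their part was not tested. Commd1, the host of Zrsr1 and known for a role in copper balance, was at 30.4 and 36.96 CPM there, above the 8.73 to 26.996 CPM elsewhere. The ratio of Zrsr1 to Commd1 counts was 0.392 in HFD 4, 0.387 in HFD 8 and 1.43 to 4.94 in the other 14 libraries. Its median was 1.83 in HFD and 2.89 in CD. Zrsr1 shares 9.17% of its exon bases with Commd1 on the other strand, and with the strand setting unknown those reads cannot be told apart. None of the hosts passed the threshold, with edgeR adjusted p of 0.792 for H13, 0.553 for Commd1, 0.874 for Blcap and 0.996 for Herc3. Of the other host genes listed, Trappc9 had an adjusted p of 0.709 and Inpp5f of 0.652.

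**Figure D4:**
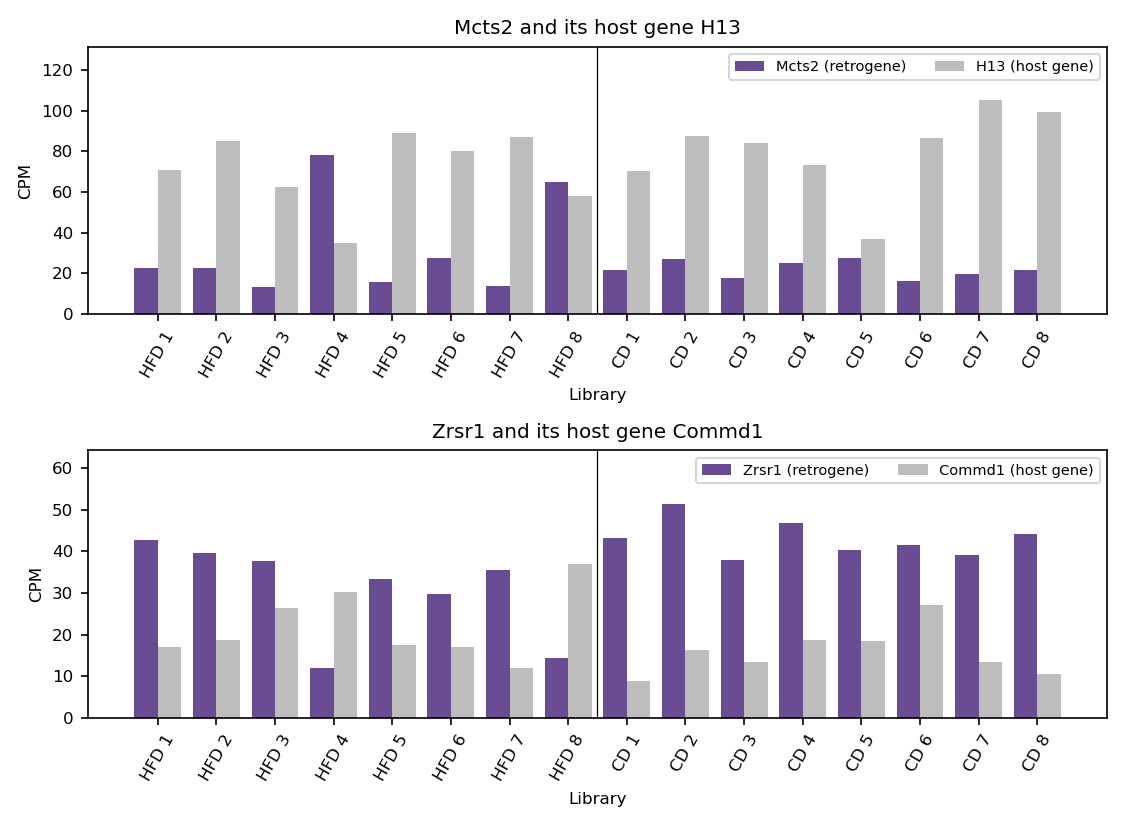
CPM of 2 imprinted retrogenes (purple) and of the genes whose spans hold them (grey), with 1 pair of bars per library, HFD left and CD right. Mcts2 exceeds H13 in HFD 4 and HFD 8 alone, and Zrsr1 is below Commd1 in those libraries alone.

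Other members split in HFD 4 and HFD 8 as well. Of the 19 tested, Mcts2 and Grb10 were higher in both libraries than in any of the other 14, and Gnas, Slc38a4, Mest and Zrsr1 were lower. The same held for 21.8% of all tested genes in the first direction and 22.6% in the second. With 19 members, counts of 2 and 4 are too few to set them apart from these shares. HFD 4 and HFD 8 are the libraries with the most late spermatid and meiotic and the least epididymal RNA, as given above. They also had the largest shares of reads outside any feature, at 76.1% and 75.0%, against 58.0% to 67.9% in the other 14. Reads assigned to genes made up 8.02% and 9.16% there, against 10.3% to 20.1%, and HFD 4 had the fewest gene counts. The part of these RNAs and of these read shares in the members' values was not tested.

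The 2 members with the highest level per kb were low in HFD 4 and HFD 8. Gnas (chromosome 2, 174284320 to 174346744, protein-coding) stood at 502 and 439 CPM in HFD 4 and HFD 8, against 1197 to 1611 CPM in the other HFD libraries and 1007 to 1927 CPM in CD. Its mean was 1179 ± 459 CPM in HFD and 1378 ± 295 CPM in CD (SD, n = 8 each). The log2 fold change was -0.22 ± 0.27 (SE), with a 95% interval of -0.80 to 0.35 and an edgeR adjusted p of 0.783. It was -0.10 when either HFD 4 or HFD 8 was left out and 0.05 when both were. Nespas, antisense to Gnas, and Gm20721 share 22% of its exon bases, and the count joins its several promoters. Slc38a4 (chromosome 15, 96994820 to 97055956, protein-coding) stood at 13.1 and 31.7 CPM in HFD 4 and HFD 8, and at 119 to 318 CPM in the other 14 libraries. Its mean was 166 ± 103 CPM in HFD and 189 ± 57.7 CPM in CD (SD, n = 8 each). Its log2 fold change was -0.19 ± 0.44 (SE), with a 95% interval of -1.10 to 0.73 and an edgeR adjusted p of 0.896. It was 0.0029 without HFD 4, -0.03 without HFD 8 and 0.19 without both.

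Mest had 18.4 to 62.1 CPM in HFD, with a median of 38.5, and 29.4 to 51.9 CPM in CD, with a median of 41.9. HFD 4 and HFD 8 were lowest, at 18.4 and 24.8 CPM, and HFD 7 was highest. Means were 38.6 ± 13.8 CPM in HFD and 42.1 ± 6.80 CPM in CD (SD, n = 8 each). The log2 fold change was -0.12 ± 0.22 (SE), with a 95% interval of -0.59 to 0.35 and an edgeR adjusted p of 0.858, and without both libraries it was 0.08. Copg2 shares 23.1% of the exon bases of Mest on the other strand. Impact had 29.8 to 95.7 CPM in HFD, with a median of 66.2, and 39.8 to 93.4 CPM in CD, with a median of 59.2. The log2 fold change was 0.10 ± 0.23 (SE), with a 95% interval of -0.39 to 0.59 and an edgeR adjusted p of 0.896, and 0.25 without HFD 4 and HFD 8. HFD 4 was lowest and HFD 2 highest in HFD, and the ranges of the diets overlapped almost wholly.

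Among growth restrictors, Cdkn1c and Grb10 had higher means in HFD, and neither passed. Cdkn1c, an inhibitor of cyclin-dependent kinases (chromosome 7, 143458339 to 143461050, protein-coding), had 2.40 to 20.6 CPM in HFD, with a median of 6.38, and 2.49 to 11.3 CPM in CD, with a median of 4.04. The highest values were 20.6 CPM in HFD 8, 14.7 CPM in HFD 5 and 14.3 CPM in HFD 4. Means were 8.97 ± 6.71 CPM in HFD and 5.19 ± 2.97 CPM in CD (SD, n = 8 each), and an antisense gene shares 30.7% of its exon bases. The log2 fold change was 0.77 ± 0.48 (SE), with a 95% interval of -0.22 to 1.77 and an edgeR adjusted p of 0.564. It was 0.47 without HFD 8 and 0.24 without HFD 4 and HFD 8. Grb10, an adaptor that restrains insulin signalling (chromosome 11, 11930508 to 12038683, protein-coding), reached 35.1 and 34.9 CPM in HFD 4 and HFD 8, against 5.85 to 16.3 CPM in the remaining HFD libraries and 7.03 to 25.8 CPM in CD. Means were 17.7 ± 11.1 CPM in HFD and 13.3 ± 7.10 CPM in CD (SD, n = 8 each). Its log2 fold change was 0.40 ± 0.40 (SE), with a 95% interval of -0.44 to 1.23 and an edgeR adjusted p of 0.746. It was 0.20 without HFD 4, 0.18 without HFD 8, 0.60 without CD 7 and -0.15 without HFD 4 and HFD 8.

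**Figure D5:**
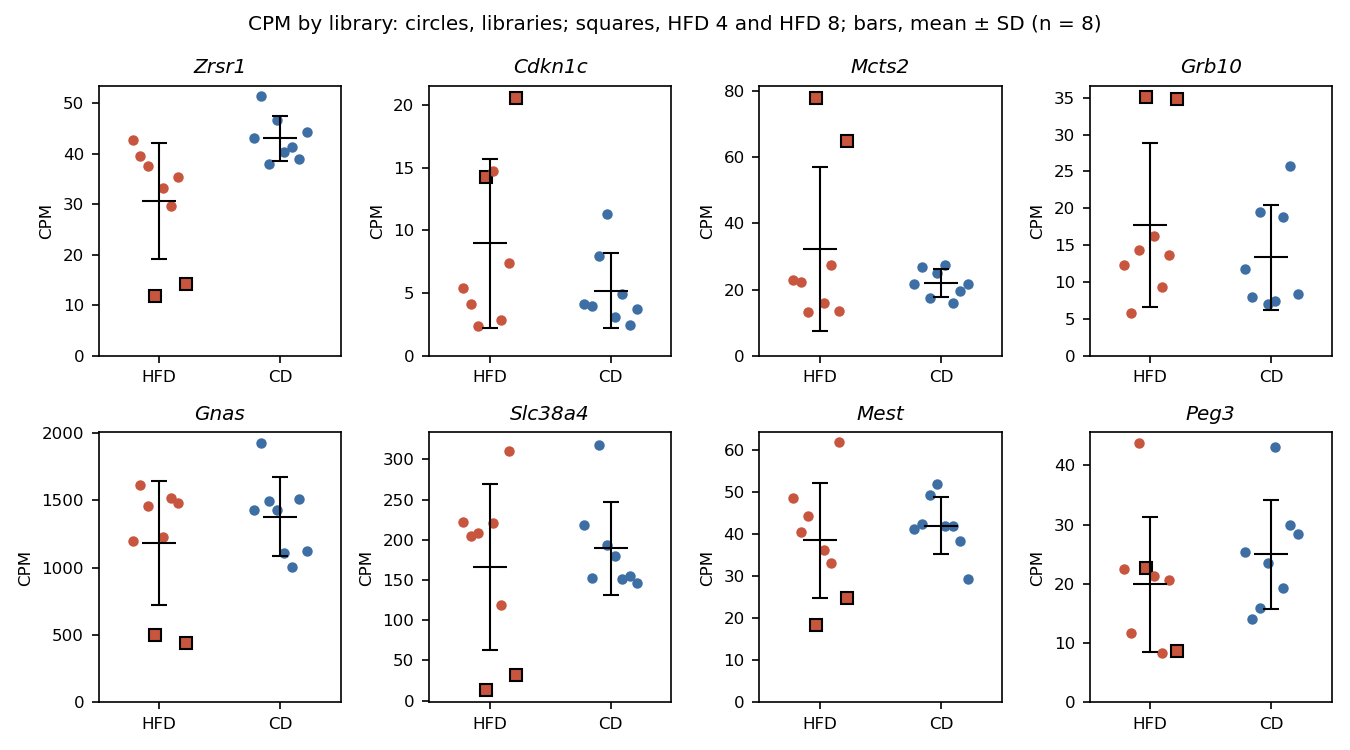
CPM of 8 imprinted genes in each library of HFD (left) and CD (right), n = 8 each; squares mark HFD 4 and HFD 8, and bars show mean ± SD. In the panels of Zrsr1, Gnas, Slc38a4 and Mest the squares lie below every other library, and in those of Mcts2 and Grb10 above every other library.

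Igf2 and Igf2r, the receptor that clears it, overlapped widely between diets. Igf2 had 1.55 to 15.7 CPM in HFD, with a median of 10.4, and 3.57 to 19.3 CPM in CD, with a median of 8.99. Its log2 fold change was -0.08, with a 95% interval of -1.08 to 0.92, and other genes share 64.5% of its exon bases. H19, its noncoding neighbour, had from 0 to 25 counts in HFD and from 0 to 18 counts in CD and was not tested. Igf2r had 2.38 to 47.6 CPM in HFD, with HFD 4 lowest, and 11.998 to 40.2 CPM in CD. The log2 fold change of Igf2r was 0.06, with a 95% interval of -0.73 to 0.84, and 0.22 without HFD 4 and HFD 8. Airn, the noncoding RNA antisense to Igf2r, had 0 to 21 counts in HFD and 3 to 23 in CD.

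Kcnq1 and Kcnq1ot1, which overlap on opposite strands of chromosome 7, had their extremes in the same libraries. Kcnq1 had 4.88 to 39.9 CPM in HFD, with a median of 29.7, and 7.41 to 58.4 CPM in CD, with a median of 31.9. Kcnq1ot1 had 45.3 to 222 CPM in HFD, with a median of 155, and 78.2 to 262 CPM in CD, with a median of 159. Both were lowest in HFD 8 and highest in HFD 5 among HFD libraries, and lowest in CD 5 and highest in CD 4 among CD libraries. Kcnq1 differed by -0.23 ± 0.37 (SE) in log2 units, with a 95% interval of -0.9999 to 0.53 and an edgeR adjusted p of 0.835. It was -0.07 without HFD 8, -0.04 without CD 4, -0.37 without CD 5 and 0.02 without HFD 4 and HFD 8. For Kcnq1ot1 the difference was -0.08 with an edgeR adjusted p of 0.940. In the GENCODE model they share 2.96% of the exon bases of Kcnq1, and with the strand setting unknown those reads cannot be told apart. Kcnq1ot1 also lies wholly within the span of Kcnq1. If strand was not used in counting, reads from Kcnq1 introns there would count as Kcnq1ot1, and their part was not tested. Slc22a18, a transporter of the same domain, had 0 to 21 counts in HFD and 0 to 18 in CD.

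Peg3, a zinc finger gene of chromosome 7, had 8.27 to 43.8 CPM in HFD, with a median of 21.0, and 14.2 to 43.2 CPM in CD, with a median of 24.5. HFD 3 was highest in HFD and CD 5 in CD. Means were 19.9 ± 11.4 CPM in HFD and 25.0 ± 9.27 CPM in CD (SD, n = 8 each). Peg3 differed in log2 units by -0.33 ± 0.34 (SE), with a 95% interval of -1.03 to 0.38 and an edgeR adjusted p of 0.750. It was -0.58 without HFD 3, -0.21 without HFD 6, -0.22 without HFD 8, -0.16 without CD 5 and -0.22 without HFD 4 and HFD 8. Usp29, a ubiquitin protease gene beside Peg3, did not pass the filter. Its counts in HFD 1 to HFD 8 were 8, 1, 0, 10, 1, 2, 8 and 8, and in CD 1 to CD 8 they were 1, 5, 0, 0, 0, 1, 0 and 0. The HFD libraries held 38 counts in all, 20 without HFD 4 and HFD 8, and the CD libraries 7. With no expression filter, edgeR gave a log2 fold change of 3.07 with an unadjusted p of 0.00664 and an adjusted p of 0.357, and DESeq2 an adjusted p of 0.198. With no filter, edgeR gave 2 of 36 members, Usp29 and Phlda2, an unadjusted p under 0.05, against 12.3% of all genes, and DESeq2 3 of 36, against 11.1%. Neither called a member at an adjusted p of 0.05, against 0% of all genes with edgeR and 0.0049% with DESeq2. Zim1, next to Peg3, had 0 to 5 counts in HFD and 0 to 6 in CD.

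In the Prader-Willi and Angelman region, Ube3a was the most abundant member. It had 53.0 to 161 CPM in HFD, with a median of 86.6, and 56.2 to 135 CPM in CD, with a median of 103. HFD 8 was highest and HFD 3 lowest, and the diets overlapped. For Ube3a the difference in log2 units was -0.03 ± 0.24 (SE), with a 95% interval of -0.54 to 0.48 and an edgeR adjusted p of 0.971. Without HFD 8 it was -0.19, and without HFD 4 and HFD 8 -0.26. Genes on the other strand share 27.3% of the exon bases of Ube3a, among them Snhg14, which carries its antisense transcript. Ndn, a growth suppressor of neurons, had 0.774 to 6.16 CPM in HFD and 0.255 to 12.3 CPM in CD, with a log2 fold change of -0.17, or 0.41 without CD 6, the highest library. Mkrn3, a ring finger gene, had 62 counts in HFD libraries and 30 in CD libraries, 19 of the CD counts being in CD 2, and an adjusted p of 0.446 in the edgeR fit with no filter. Peg12 had 3 counts in HFD and 11 in CD.

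In the Dlk1-Dio3 domain on chromosome 12, Meg3 alone passed the expression filter. Meg3 had 41 counts in HFD 4 and 50 in CD 6, while the other HFD libraries had 0 to 19 and the other CD libraries 6 to 23. Its log2 fold change of -0.01 had a 95% interval of -1.38 to 1.37. It was -0.91 without HFD 4, 0.36 without CD 6 and -0.70 without HFD 4 and HFD 8. Rian, a noncoding host of small nucleolar RNAs, had 2 to 17 counts in HFD, highest in HFD 6, and 3 to 19 in CD, highest in CD 8. Dlk1, a membrane ligand that restrains adipocyte formation, had 2 counts over all HFD libraries and 15 over all CD libraries, of which CD 8 held 13. Rtl1, a retrotransposon-derived gene, had 1 count in HFD and 7 in CD. Mirg, a host of microRNAs, had 2 counts in HFD and 4 in CD, and Dio3, which inactivates thyroid hormone, had 16 in HFD and 5 in CD.

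Asb4 and Meg3 peaked in the same pair of libraries. Asb4, a gene beside Peg10 that encodes a subunit of ubiquitin ligases, had 29.8 CPM in HFD 4 and 0 to 9.56 CPM in the other HFD libraries, and 26.5 CPM in CD 6 and 19.01 CPM in CD 1, with 2.27 to 8.25 CPM in the remaining CD libraries. Its log2 fold change was -0.28, with a 95% interval of -1.76 to 1.20. It was -0.95 without HFD 4, 0.16 without CD 6 and -1.06 without HFD 4 and HFD 8. Genes of stroma, endothelium and smooth muscle, all 15 of which had a count, together had 375 to 1031 CPM in HFD, highest in HFD 4, and 278 to 789 CPM in CD, highest in CD 6. HFD 8 also held 789 CPM of them, with Meg3 at 0 and Asb4 at 6.97 CPM. Erythroid genes, of which 3 of 7 had a count and all 4 globins were at 0, had 27.2 to 200.3 CPM in HFD, highest in HFD 4, and 16.3 to 90.01 CPM in CD, highest in CD 6. The part of either list in the values of Asb4 and Meg3 was not tested. Sgce, a sarcoglycan on the other side of Peg10, had 0 to 15.4 CPM in HFD, with a median of 3.54, and 0 to 6.22 CPM in CD, with a median of 3.21. Its log2 fold change was 0.65 ± 0.69 (SE), with a 95% interval of -0.80 to 2.10 and an edgeR adjusted p of 0.759, and was 0.22 without HFD 3, 0.39 without HFD 8 and 0.38 without HFD 4 and HFD 8. Peg10, derived from a retrotransposon, had 4 to 35 counts in HFD and 2 to 35 in CD.

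Plagl1, a zinc finger regulator of growth, had 2.44 to 31.8 CPM in HFD, with a median of 11.4, and 7.10 to 20.2 CPM in CD, with a median of 15.5. HFD 5 was highest and HFD 8 lowest, and the log2 fold change of -0.12 had an edgeR adjusted p of 0.930. Nnat, a small membrane protein gene of the brain, had 0 to 11 counts in HFD and 0 to 8 in CD, and Nap1l5 had 0 to 6 in HFD and 0 to 12 in CD.

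Genes that lay down, keep or remove imprints were compared beside the members. Of 20 such genes, 17 were tested and 0 called, against 0% of all genes tested. At an unadjusted p under 0.05 edgeR gave 0 of these 17, against 11.3% of all genes. Log2 fold changes were positive for 5 and negative for 12, from -0.50 to 1.45. The median of these regulators was -0.16, or -0.08 without HFD 4 and HFD 8. The most abundant were Nsd1, a histone H3 methyltransferase, at 270 ± 76.3 CPM in HFD and 317 ± 42.4 CPM in CD (SD, n = 8 each), with an edgeR adjusted p of 0.707, Arid4b with 0.734, and the DNA demethylase Tet2 with 0.855. Of 41 further imprinted genes in the table, 25 were tested and 0 called, against 0% of all genes tested. At an unadjusted p under 0.05 edgeR gave 2 of these 25, against 11.3% of all genes. Their log2 fold changes, 11 positive and 14 negative, ran from -0.66 to 1.64. The median was -0.13, or -0.02 without HFD 4 and HFD 8. Of these further genes Cd81, Dcn and Copg2 had the highest mean CPM, again not scaled for exon length. Cd81 had 367 ± 240 CPM in HFD and 481 ± 280 CPM in CD, and Dcn 203 ± 124 CPM in HFD and 154 ± 72.8 CPM in CD. Copg2 had 86.9 ± 27.3 CPM in HFD and 89.5 ± 21.3 CPM in CD. The edgeR adjusted p was 0.789 for Cd81, 0.707 for Dcn and 0.960 for Copg2. Several of these genes also stood apart in HFD 4 and HFD 8. Of all tested genes, 21.8% were above the other 14 libraries in both and 22.6% were below in both. Nsd1 was at 190 and 120 CPM there, below the 268 to 392 CPM of the other 14 libraries, and Tet2 at 23.8 and 50.6 CPM, below 57.2 to 141 CPM. Cd81 was at 53.0 and 59.6 CPM, below 198 to 882 CPM. Dcn, which is also a gene of fibroblasts, was at 365 and 426 CPM, above 76.6 to 288 CPM. Arid4b was at 79.2 and 115 CPM, inside 68.8 to 155 CPM, and Copg2 at 26.8 and 77.1 CPM, where the other 14 libraries had 60.5 to 125 CPM.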

How the data were processed

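Sperm RNA of 8 HFD and 8 CD mice was sequenced, and libraries were grouped by the diet label. Per the labels' protocols, 2 ng of RNA went into cDNA and 250 ng of cDNA into each library, and no molecular identifier is named. The authors deposited raw read counts per gene, with 5 summary rows, which entered neither library sizes nor tests. These rows held 58.0% to 76.1% of a library's reads as outside any feature and 15.8% to 30.7% as not uniquely aligned. Per the submitters' processing notes, the tools were STAR, DESeq2 1.0.19 and HTSeq 1.0.0 and the build mm10, with no role stated. Annotation and strand setting: not given in the sources used here.

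Counts were tested with edgeR 4.0.16 in R 4.3.3 (quasi-likelihood F-test, robust, TMM factors, default expression filter, diet as the only term, two-sided), with Benjamini-Hochberg adjustment over 13149 genes and a threshold of 0.05. SE and 95% intervals come from the same fit. Libraries are described as separate mice; where preparation shared steps, p-values measure the spread between these libraries. Positions and exon lengths are from GENCODE M21 (GRCm38, the assembly of mm10) and sequences from RefSeq GRCm38.p6. Alternatives were DESeq2 1.42.0, limma-voom (limma 3.58.1), other scalings and filters, covariates, a block on title numbers, and leaving out libraries; those without HFD 4 and HFD 8 and DESeq2 without a filter were chosen after seeing the data. The members, lists and naming rule were chosen with earlier results of these data known. The rule gave full statistics to the 8 tested members with the smallest p and the 8 with the highest CPM per kb. Of each further list it named the 3 tested genes with the highest mean CPM, not scaled for exon length. Mcts1, Zrsr2, Nap1l1 and the remaining host genes were added after their values were seen. Marker lists of Sertoli, Leydig, leukocyte and erythroid genes summed to at most 10985, 146, 1378 and 200.3 CPM in any library, and Clu, in the Sertoli list, is also an epididymal gene.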

Additional observations from a re-analysis of the deposited data

Results flagged for a closer look

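Each tested member and the sum of the members was checked within each diet for a library far from the rest, by the gap to its neighbour relative to the range of the 8 libraries. In 5 of 40 such groups a library stood out. The cut-off is set for about 1 in 20 groups of normally distributed values, which CPM from low counts need not be, so no chance rate is read from it. The rule does not flag a pair of libraries that stand apart together, as HFD 4 and HFD 8 did for Mcts2. Meg3 in HFD 4 stood at 24.4 CPM, with the next HFD library at 4.91 CPM. Asb4 in HFD 4 stood at 29.8 CPM, with the next at 9.56 CPM. Ndn in CD 6 stood at 12.3 CPM, with the next CD library at 4.16 CPM. Peg3 in HFD 3 stood at 43.8 CPM, with the next at 22.6 CPM. Slc38a4 in CD 3 stood at 318 CPM, with the next at 218 CPM.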

How the results depend on the processing

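No member passed the threshold under any of the alternatives run. Over 494 values of the 19 tested members the smallest adjusted p was 0.340, for Zrsr1, and among members tested only without a filter it was 0.198, for Usp29 with DESeq2. DESeq2 called 1 gene of all those tested, with or without the expression filter, and it was no member. Of the 494 values 444 kept their direction. Zrsr1, Peg3, Cdkn1c and Sgce kept it in all of them, though not their size. The values that follow are log2 fold changes of HFD over CD. Without HFD 4 and HFD 8, Mest was 0.081, Kcnq1ot1 0.077, Kcnq1 0.016, Grb10 -0.15, Gnas 0.051, Mcts2 -0.17 and Slc38a4 0.19. With limma-voom and quality weights, Mest was 0.0089, Kcnq1 0.0030, Grb10 -0.35 and Slc38a4 0.0030, and Cdkn1c was 0.12, Sgce 0.077 and Mcts2 0.0078. With DESeq2, Ube3a was 0.0064 and Meg3 0.091, and with its size factors in edgeR Ube3a was 0.0074 and Meg3 0.065. With the log2 total as a covariate Ube3a was 0.059, Grb10 0.0060 and Meg3 -0.73, and without Rn45s, the ribosomal RNA precursor, Meg3 was 0.0065.

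Leaving out 1 library at a time gave -0.23 to 0.16 for Igf2, -0.092 to 0.24 for Igf2r, -0.36 to 0.41 for Ndn, -0.19 to 0.071 for Ube3a, -0.45 to 0.037 for Plagl1, -0.18 to 0.083 for Kcnq1ot1, -0.91 to 0.36 for Meg3, -0.00028 to 0.22 for Impact, -0.95 to 0.16 for Asb4 and -0.38 to 0.0029 for Slc38a4. The member median ranged from -0.14 to -0.0055, and the difference in summed CPM, -245, from -319 to -106. It was 66.7 without HFD 4 and HFD 8.

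Title numbers gave same-numbered libraries correlations of -0.40 to 0.61, with 4 of 8 over 0.1 and 2 highest for their own number. These correlations run over all tested genes, so shifts of whole libraries such as HFD 4 and HFD 8 enter them. They cannot settle whether the numbers pair mice. With a replicate block on the title numbers 0 genes were called, the member median was -0.14 and Ndn was 0.13. Under the block Slc38a4 was -0.53, Plagl1 -0.38, Meg3 -0.36, Asb4 -0.60, Sgce 0.10 and Mcts2 0.26. The causes were not tested. Low counts limit the 19 members that were not tested.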
